A study of Mus musculus with 2 samples.

Results

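Interferon gamma, encoded by Ifng, and 7 genes through which interleukin 12 (IL-12) and interleukin 18 (IL-18) induce it were followed in natural killer (NK) cells and in the few other lymphocytes sorted with them. The 8 genes were taken by symbol from the 31053 genes listed in both libraries: Ifng itself, the receptor chains Il12rb1, Il12rb2, Il18r1 and Il18rap, the kinases Tyk2 and Jak2, and the transcription factor Stat4. The choice was by name, with no threshold on a measured value. Cells came from spleens of C57BL/6 mice, were flow sorted as CD27+CD11b+ NK cells, and were profiled by droplet sequencing of 3' tags with unique molecular identifiers (UMIs). The control was EP3F/F and the knockout NKp46CreEP3F/F, so both carried a floxed Ptger3 (the prostaglandin E2 receptor EP3), and Cre was driven by the gene of the receptor NKp46, which is expressed by NK cells and by some other innate lymphoid cells. Each group was 1 library from 2 pooled mice, whose age is not given in the sources used here.

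IL-12 binds a receptor made of the chains encoded by Il12rb1 and Il12rb2, whose associated kinases Tyk2 and Jak2 phosphorylate STAT4, which then enters the nucleus and drives Ifng transcription. IL-18 binds the chain encoded by Il18r1, which recruits the accessory chain encoded by Il18rap and signals through MyD88 and NF-kB. The cytokines act together on NK cells, which are a main early source of interferon gamma, and resting mouse NK cells are known to hold some Ifng mRNA before any stimulus.

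The bases before the start sites of 4 members are shown because their transcripts behaved in different ways below: Ifng was the member that was higher in both activation states, Il12rb2 and Stat4 were lower in the knockout, and Il18rap differed little. Each line holds the 250 bases before a start site of the RefSeq table for build GRCm38.p6, read 5′ to 3′ on the gene's strand. Capitals mark matches, on either strand, to a STAT motif (TTCNNNGAA), an AP-1 motif (TGANTCA), a T-box half-site (TCACAC) or an NFAT core (GGAAA).
Ifng, chr10:118440796-118441045, plus strand: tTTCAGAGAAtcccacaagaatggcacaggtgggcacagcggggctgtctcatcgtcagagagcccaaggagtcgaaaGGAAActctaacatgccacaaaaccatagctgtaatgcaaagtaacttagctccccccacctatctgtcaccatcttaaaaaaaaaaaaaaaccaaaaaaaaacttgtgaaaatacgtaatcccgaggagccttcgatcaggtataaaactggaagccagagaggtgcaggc
Il12rb2, chr6:67376189-67376438, minus strand: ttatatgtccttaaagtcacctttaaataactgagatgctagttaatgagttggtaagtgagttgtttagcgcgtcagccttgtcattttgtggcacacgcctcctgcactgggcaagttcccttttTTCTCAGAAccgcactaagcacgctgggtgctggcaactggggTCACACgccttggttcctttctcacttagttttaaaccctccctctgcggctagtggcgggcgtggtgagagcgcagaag
Stat4, upstream of its first start, chr1:51986898-51987147, plus strand: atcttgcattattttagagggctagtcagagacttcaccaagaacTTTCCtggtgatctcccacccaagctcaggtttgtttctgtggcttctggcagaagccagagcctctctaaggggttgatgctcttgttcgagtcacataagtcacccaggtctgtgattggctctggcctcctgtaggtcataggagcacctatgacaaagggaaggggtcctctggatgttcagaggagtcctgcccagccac
Il18rap, chr1:40515112-40515361, plus strand: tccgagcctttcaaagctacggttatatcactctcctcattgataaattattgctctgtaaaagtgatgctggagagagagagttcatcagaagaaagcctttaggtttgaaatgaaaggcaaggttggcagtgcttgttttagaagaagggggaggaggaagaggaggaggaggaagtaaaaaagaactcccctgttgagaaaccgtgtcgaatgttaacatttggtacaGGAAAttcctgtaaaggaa
The windows of Ifng and Il12rb2 each held 1 STAT match, which 7.02% of all 32851 windows of the table also hold. Il12rb2 alone among the 4 held a T-box half-site, found in 12.3% of all windows, and none of the 4 held the AP-1 motif, found in 6.75%. The NFAT core is in 55.6% of all windows, and was in those of Ifng, Stat4 and Il18rap. These matches describe letters, not binding sites. Of the 8 members 7 matched the table and Il12rb1 did not, and the windows of Il18r1 overlapped annotated exons and are not shown.

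In the GRCm38 annotation Ifng lies at chr10:118441046-118445892 and overlaps the model Gm49751 on its own strand, whose reads cannot be told apart from its own. Il18r1 (chr1:40465552-40500854) and Il18rap (chr1:40515362-40551705) are neighbours on the same strand, and Stat4 (chr1:51987148-52107189) lies further along and overlaps the model Gm28177. Il12rb2 is at chr6:67291318-67376188, Il12rb1 at chr8:70808449-70821424, Tyk2 at chr9:21104068-21131243 and Jak2 at chr19:29251828-29313080. Counts of 3' tags do not give levels per length, so levels are compared between cells and libraries and not between genes.

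The control library held 69853026 UMIs over 11785 barcodes and the knockout library 42795121 over 10615, with 33 barcode sequences in common. After filtering, 10388 control and 9068 knockout cells passed the NK gate, with medians of 5834.5 and 3836.0 UMIs per cell. The targeted Ptger3 gave 13 UMIs in control NK cells and 0 in knockout NK cells, where 0 allows up to 0.0962 UMIs per 1000000. Summed heat-shock transcripts were 5095 per 1000000 UMIs in control and 2123 in knockout NK cells, and the 11 T cell markers summed to 105.8 and 138.0. With 1 library per group no test was possible, no value has a spread between animals, and differences between genotypes cannot be told apart from differences between libraries. All intervals are exact 95% intervals of counting error only: Poisson for levels, binomial for shares, and conditional binomial for log2 ratios.

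Levels are given as UMIs per 1000000 UMIs of a cell class (CPM). Shares of cells with a UMI are given after each cell was thinned to 2000 UMIs, with the unthinned share beside them. In control NK cells Ifng was at 112.0 CPM, and 18.3% of thinned cells held an Ifng UMI (39.2% unthinned). In knockout NK cells it was at 93.2 CPM, with 15.7% of thinned cells positive (26.7% unthinned). As a background, macrophages with at most 1 NK marker UMI held an Ifng UMI in 2.78% of 36 control and 0.735% of 136 knockout droplets unthinned, at median depths of 1175.5 and 1418.5 UMIs. Ifng UMIs were thus read in a minority of cells, at low counts. This share depends on the depth read and does not show that the other cells lacked Ifng mRNA. A small number of cells lay far above the rest. The top 1% of NK cells held 12.6% (control) and 15.2% (knockout) of all Ifng UMIs, and the highest single cells held 39 and 55. The top 1% share is also high for genes with few UMIs, so it does not set Ifng apart by itself. It was 20.6% and 41.7% for Il12rb1, 10.15% and 14.2% for Jak2, and 3.98% and 5.72% for Stat4. The variance of thinned counts over their mean was 1.43 and 1.63 for Ifng, against at most 1.25 for any of the other 7 members in either library.

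Among the IL-12 receptor chains, Il12rb2 was at 76.4 CPM in control and 42.2 CPM in knockout NK cells, with 14.1% and 7.84% of thinned cells positive (35.8% and 15.6% unthinned). Il12rb1 was at 9.68 and 6.26 CPM, with 1.96% and 1.20% of thinned cells positive (5.90% and 2.55% unthinned). It lay under the mean of 10 CPM at which a gene is called measured here, so it enters no count of called members. The IL-18 receptor chains were found in more cells than the IL-12 receptor chains, in shares that depend on the depth read. Il18r1 was at 419.5 and 459.6 CPM, with 53.1% and 57.4% of thinned cells positive (84.3% and 78.0% unthinned). Il18rap was at 349.2 and 365.6 CPM, with 48.7% and 50.9% positive (83.1% and 72.7% unthinned).

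Downstream of the receptors, the kinase genes were read in fewer cells. Tyk2 was at 80.1 CPM in control and 69.4 CPM in knockout NK cells, with 15.01% and 13.1% of thinned cells positive (38.5% and 24.7% unthinned). Jak2 was at 43.2 and 36.7 CPM, with 8.24% and 7.23% positive (22.5% and 13.5% unthinned). Stat4, the transcription factor of the IL-12 arm, was at 396.4 and 226.1 CPM, with 53.7% and 36.1% positive (87.0% and 57.4% unthinned). In the macrophages low in NK markers each of the 8 genes had at most 6 UMIs per library, out of 54877 and 272744 UMIs in all. For Jak2 these few UMIs were 36.4 CPM (4.41 to 131.7) in the control and 22.0 CPM (8.07 to 47.9) in the knockout, intervals that include its levels in NK cells, so its level was not shown to lie above this background. Nor was that of Il12rb1, which had no UMI there, since 0 UMIs allow up to 67.2 and 13.5 CPM. In the control alone, Tyk2 (36.4 CPM, 4.41 to 131.7) and Il12rb2 (18.2 CPM, 0.46 to 101.5) had intervals there that also included their NK levels.

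**Figure D1:**
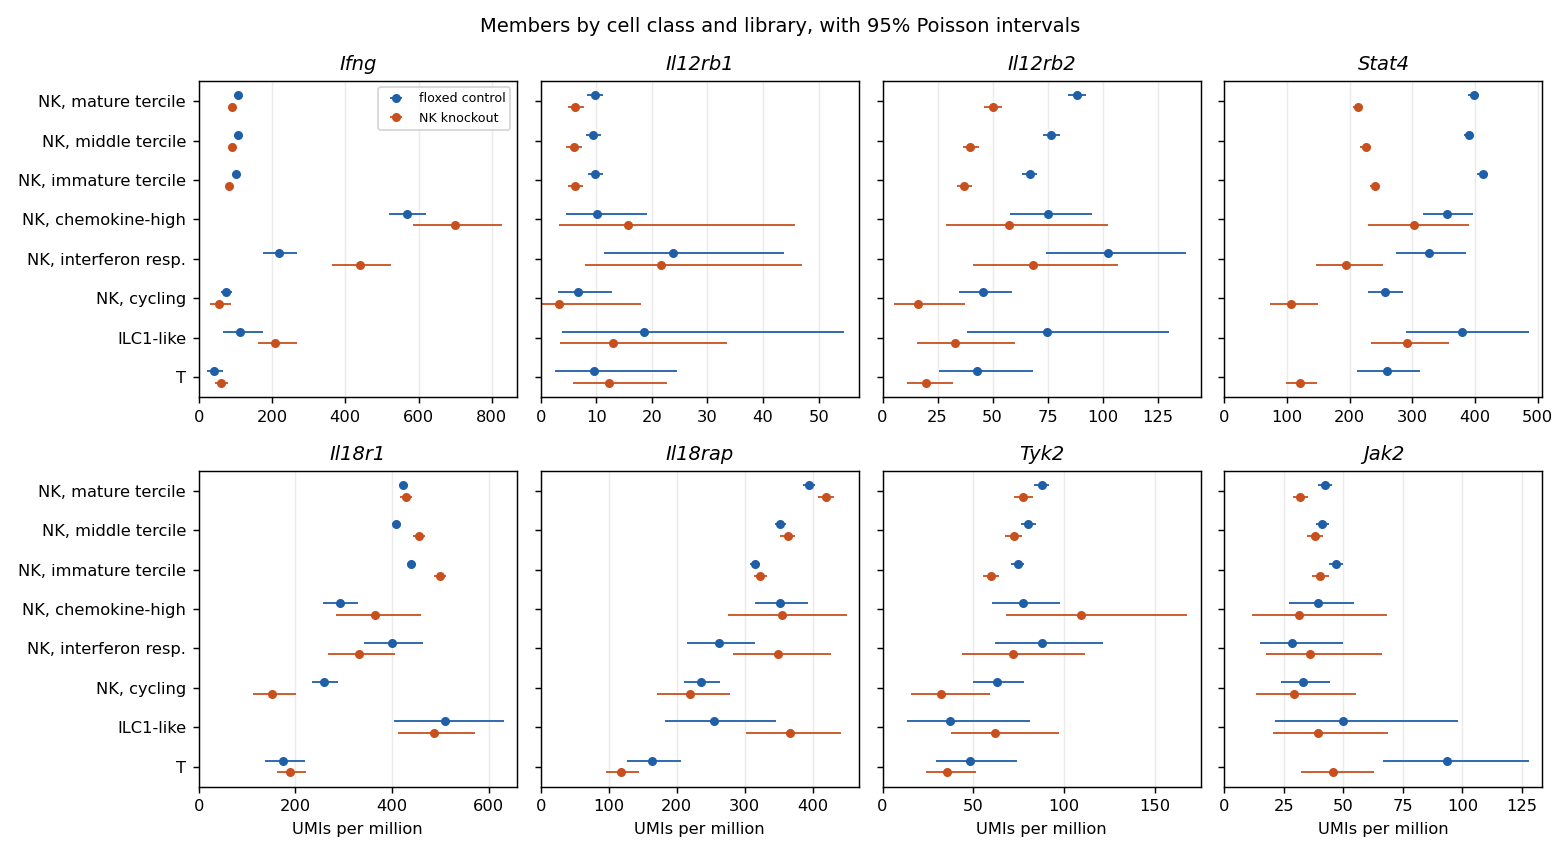
UMIs per 1000000 (x axis, linear, from 0) of each of the 8 genes in 6 NK states, ILC1-like cells and T cells (y axis), for the floxed control (blue) and the NK knockout (orange), with 95% Poisson intervals as bars. Ifng stood at 568.1 and 698.8 CPM in chemokine-high cells against 102.4 to 107.7 CPM (control) and 81.7 to 91.8 CPM (knockout) in the maturation terciles, while the Stat4 points of the knockout lay below those of the control in every class drawn.

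Comparing knockout with control NK cells, the IL-12 arm of the pathway was lower at its signalling receptor chain and its transcription factor, while the IL-18 receptor was level. Il12rb2 was 1.81-fold lower (log2 -0.86, -0.94 to -0.78) and Stat4 1.75-fold lower (log2 -0.81, -0.85 to -0.78). Il18r1 (0.13, 0.10 to 0.16) and Il18rap (0.07, 0.04 to 0.10) were slightly higher. Tyk2 (-0.21, -0.27 to -0.14), Jak2 (-0.23, -0.33 to -0.14) and Ifng (-0.27, -0.32 to -0.21) were lower by less than the size of 0.32 at which a gene is called. Il12rb1 had a log2 ratio of -0.63 (-0.85 to -0.41) from 641 and 240 UMIs.

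By that size 2 of the 7 measured members were called lower and 0 higher, where 29.1% of all 7331 measured genes were called lower and 14.9% higher. The count is therefore near the background, and the median log2 ratio was -0.23 for the 7 members and -0.07 for all measured genes. Il12rb2 lay at the 4.67th percentile of all measured genes and Stat4 at the 5.58th, with 168 measured genes in the bin of 0.1 that holds Il12rb2. To remove any trend with transcript length, the median ratio of the 300 genes of most similar exon length was also subtracted from each ratio. After this adjustment Il12rb2 (-0.87) and Stat4 (-0.79) kept their size and Ifng, the shortest member at 1295 bases of exon, moved to -0.47 and past the bound. Adjusted values were 0.25 for Il18r1, 0.30 for Il18rap, 0.03 for Tyk2 and -0.11 for Jak2.

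**Figure D2:**
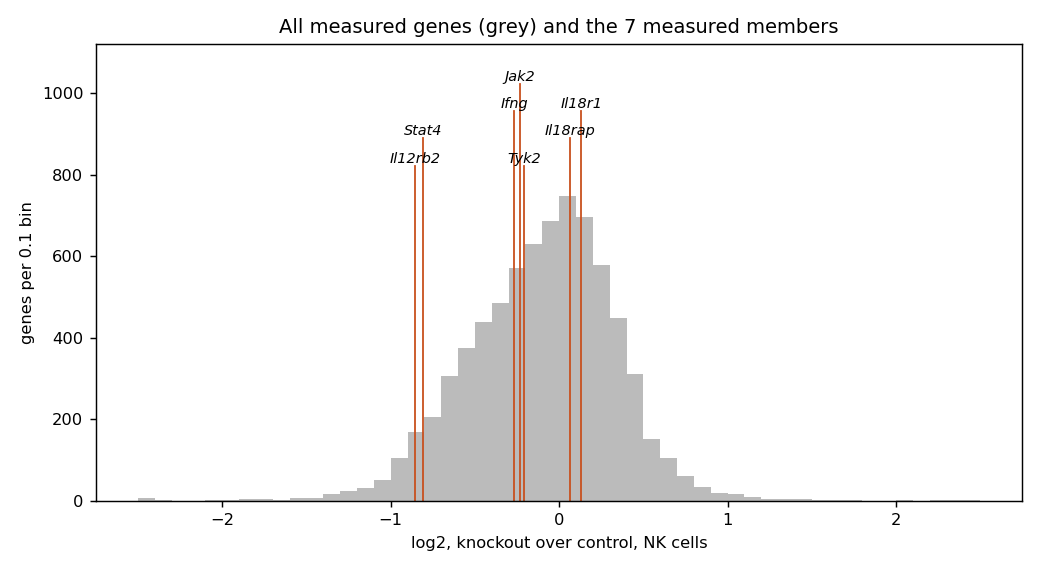
Number of measured genes (y axis) per bin of 0.1 in the log2 ratio of knockout over control NK cells (x axis), with the 7 measured members as orange lines and values beyond 2.5 drawn in the outermost bins. Il12rb2 at -0.86 and Stat4 at -0.81 lie in the lower flank of the distribution, and Il18r1 at 0.13 and Il18rap at 0.07 near its peak.

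Stat4 was also lower within the maturation classes described below and in T cells. It was 397.6 CPM in control against 213.2 CPM in knockout cells of the mature tercile, 390.4 against 225.4 CPM in the middle tercile, and 411.9 against 240.4 CPM in the immature tercile. In T cells Stat4 was 258.8 CPM in 57 control cells and 120.9 CPM in 148 knockout cells (log2 -1.10, -1.51 to -0.69). In T cells without a UMI of Ncr1, the NKp46 gene, the log2 ratio of Stat4 was -1.18 (-1.73 to -0.64). In chemokine-high (-0.23, -0.66 to 0.17) and ILC1-like cells (-0.38, -0.87 to 0.12) the interval of Stat4 included 0. Il12rb2 had a log2 ratio of -1.13 (-2.20 to -0.07) in T cells, from 18 and 16 UMIs, and of -0.82 to -0.94 in the 3 maturation terciles.

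**Figure D3:**
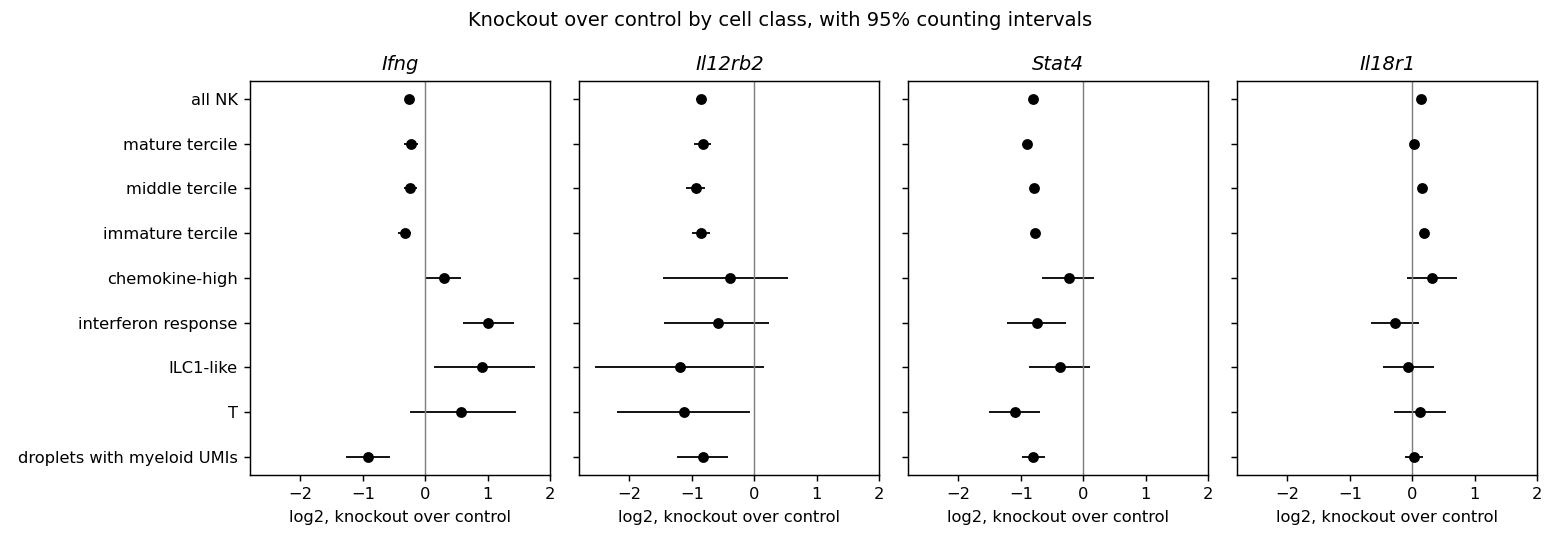
Log2 ratio of knockout over control (x axis) for Ifng, Il12rb2, Stat4 and Il18r1 in NK cells, NK states, ILC1-like cells, T cells and droplets with myeloid UMIs (y axis), with 95% counting intervals as bars. Stat4 lies below 0 in every class drawn, and Ifng lies below 0 in the maturation terciles and above 0 in chemokine-high cells (0.30), interferon-response cells (1.005) and ILC1-like cells (0.91).

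The surrounding pathway was described with a list of 93 other genes, of which 63 were measured. Of these 2 were higher and 23 lower in knockout NK cells, with a median log2 ratio of -0.26 (-0.09 after the length adjustment, with 3 higher and 19 lower). Over all measured genes 29.1% were lower and 14.9% higher, and after the adjustment 18.7% and 15.5%. None of 8 ligand genes was measured. Among regulators of Ifng transcription 9 of 15 were lower, led by the AP-1 subunit gene Fos (-1.14), the zinc finger repressor gene Zeb2 (-0.89) and Ets1 (-0.69). After the adjustment 6 of the 15 were lower, with Fos at -1.26, Zeb2 at -0.35 and Ets1 at -0.37. Tbx21, the gene of T-bet, was among them (-0.39, adjusted -0.51), and Eomes was not (-0.24, adjusted -0.18). Among interferon gamma targets 6 of 13 were lower, led by the guanylate-binding protein genes Gbp2 (-0.81), Gbp5 (-0.70) and Gbp4 (-0.63), and 6 after the adjustment. Of 7 inhibitors of cytokine signalling Socs2 was higher (0.98) and the phosphatase genes Ptpn6 (-1.11) and Ptpn11 (-0.44, adjusted -0.14) were lower. Of 6 stress kinase and GADD45 genes Gadd45a was higher (0.40, adjusted 0.19) and the kinase genes Map3k4 (-0.59, adjusted -0.25) and Mapk14 (-0.58) were lower. Of 10 IL-18 signal transducers the kinase gene Irak4 (-0.84) and Nfkb1 (-0.38, adjusted 0.00) were lower.

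Maturation was scored from 8 markers each of mature and immature NK cells, and cells outside the other states were divided into terciles (equal parts by rank) within each library. All cells came from the CD27+CD11b+ sort, and Cd27 and the CD11b gene Itgam are among the markers. The terciles therefore span only the spread within that sort. These terciles are ranges of a score and not types: 571 to 694 control and 519 to 594 knockout cells lay within 0.1 SD of the score from a cut. No measured member reached the called size (log2 0.58 in both libraries) between the mature and immature tercile, where 0.342% of 7316 genes were called higher and 0.560% lower. The members that leaned one way in both libraries did so by small amounts. Il12rb2 was at 88.4 CPM in the mature and 66.8 CPM in the immature tercile of the control (log2 0.40, 0.30 to 0.50), and at 49.96 and 37.1 CPM in the knockout (0.43, 0.26 to 0.61). Il18rap was higher in the mature tercile by 0.32 (0.28 to 0.37) in the control and 0.38 (0.32 to 0.44) in the knockout. Its partner Il18r1 leaned the other way, at -0.06 (-0.10 to -0.01) and -0.22 (-0.27 to -0.17). Tyk2 leaned to the mature tercile (0.23 and 0.38), Jak2 to the immature tercile (-0.15 and -0.34) and Stat4 slightly to the immature tercile (-0.05 and -0.17). Ifng differed little, with 107.7, 107.4 and 102.4 CPM from the mature to the immature tercile of the control and 91.8, 90.9 and 81.7 CPM in the knockout, where 1 cell with 55 UMIs lay in the immature tercile (77.5 CPM without it). After thinning, the mature over immature ratio of Ifng in the control was -0.08 in place of 0.07.

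Activation was read in 2 states set by marker UMIs. Chemokine-high cells held at least 10 UMIs of Ccl3, Ccl4 and the orphan receptor gene Nr4a3 after thinning, which gave 128 control and 41 knockout cells. In the control 46 cells lay at 8 to 9 of these UMIs and 40 at 10 to 11, and in the knockout 5 and 6. Ifng was at 568.1 CPM in chemokine-high and 105.8 CPM in other control NK cells, which is 5.37-fold higher (log2 2.42, 2.29 to 2.56). In the knockout it was at 698.8 and 90.3 CPM, which is 7.74-fold higher (log2 2.95, 2.69 to 3.20). Of thinned chemokine-high cells 46.1% in the control and 56.1% in the knockout held an Ifng UMI (72.7% and 73.2% unthinned). The ratio was 2.33 and 2.75 without the single cell of the most Ifng UMIs in each library. Set against each other, the chemokine-high cells of the knockout and the control gave a log2 ratio of Ifng of 0.30 (0.01 to 0.58), and 0.20 (-0.11 to 0.49) without those cells. The 3 gate genes summed to 11040 CPM in control and 15380 CPM in knockout chemokine-high cells.

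Ifng was the only one of 7 measured members called in this state, where 1.57% of 7329 genes were called higher and 3.29% lower. None of the receptor chains, kinases or Stat4 was called. Il18r1 was at 291.9 CPM in chemokine-high against 421.2 CPM in other control cells (log2 -0.53, -0.71 to -0.35) and at 365.0 against 459.2 CPM in the knockout (-0.33, -0.69 to 0.01). Il18rap was level (0.01, -0.15 to 0.17, and -0.04, -0.41 to 0.30). Il12rb2 gave -0.03 (-0.40 to 0.32) and 0.45 (-0.56 to 1.29), and Stat4 gave -0.16 (-0.32 to 0.00) and 0.42 (0.02 to 0.80). In the knockout the counts behind these ratios were 6 to 70 UMIs per gene, so moderate differences were not detectable there.

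Of the pathway list, 7 measured genes were called higher in chemokine-high cells. They were the stress adaptors Gadd45b (log2 3.86 and 4.25) and Gadd45g (1.25 and 3.54), the NF-kB subunit gene Rel (1.87 and 2.60), the decay factors Zfp36 (0.84 and 1.21), Zfp36l1 and Zc3h12a (1.65 and 2.37), and Irf8 (1.65 and 1.74). Socs2 was called lower, from 5 and 2 UMIs, and none of the other 12 measured interferon gamma targets was called. Immediate early genes summed to 4699 CPM in chemokine-high and 3310 CPM in all NK cells of the control, and to 4735 and 2886 CPM in the knockout. Their part in the Ifng difference was not tested.

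The link of Ifng to the chemokines was also read over bins of Ccl3 and Ccl4 UMIs. The top bin nearly repeats the chemokine-high gate, so only the lower bins add to it. The share of thinned control NK cells with an Ifng UMI was 16.2% (15.3 to 17.2) of 5990 cells with no Ccl3 or Ccl4 UMI, 19.7% at 1 to 2 UMIs, 21.2% at 3 to 5, 32.3% at 6 to 9 and 44.96% (36.2 to 54.0) of 129 cells at 10 or more. In the knockout the shares were 14.9% (14.1 to 15.8) of 6446 cells, then 16.4%, 21.4%, 20.5% (of only 39 cells) and 56.1% (39.8 to 71.5) of 41 cells. The top bin was highest in both libraries, which restates the contrast of the gate. Over the lower bins the control share rose at each step, up to 32.3%. The knockout share rose to 21.4% at 3 to 5 and did not rise further at 6 to 9 chemokine UMIs. Most Ifng-positive cells had few or none: 972 of 1879 in the control and 963 of 1398 in the knockout held no Ccl3 or Ccl4 UMI.

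**Figure D4:**
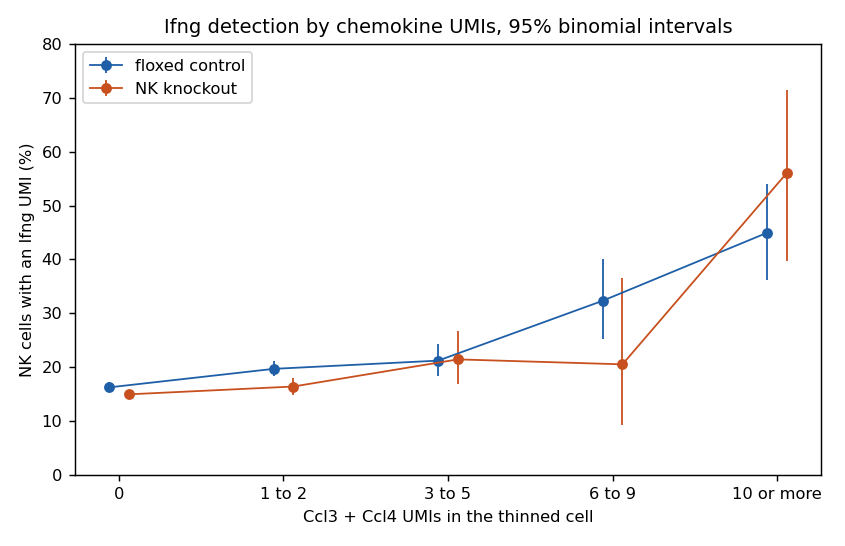
Share of thinned NK cells with an Ifng UMI (y axis, percent) by the sum of Ccl3 and Ccl4 UMIs in the cell (x axis), for the floxed control (blue) and the NK knockout (orange), with 95% binomial intervals as bars. The share was 16.2% and 14.9% at 0 chemokine UMIs and 44.96% and 56.1% at 10 or more, a bin that nearly repeats the chemokine-high gate. At 6 to 9 it was 32.3% and 20.5%.

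Interferon-response cells were gated on at least 3 thinned UMIs over 10 type I interferon response genes such as Ifit1 and Isg15, which gave 62 cells in each library. Ifng was at 218.9 CPM in them and 111.3 CPM in other NK cells of the control (log2 0.98, 0.66 to 1.27). In the knockout it was at 439.5 and 90.8 CPM (log2 2.27, 2.003 to 2.54). Of thinned control cells in this state 20.97% (11.7 to 33.2) held an Ifng UMI (54.8% unthinned). That interval includes the 18.3% of all thinned control NK cells, so a higher share was not shown in the control. In the knockout the share was 40.3% (28.05 to 53.55, 53.2% unthinned), against 15.7% of all thinned knockout NK cells. Ifng was again the only measured member called, where 3.42% of 7329 genes were called higher and 5.62% lower. Cells with under 3 UMIs of Ccl3, Ccl4 and Nr4a3 gave 0.89 and 2.25. Without the cell of the most Ifng UMIs the ratios were 0.74 and 2.06. Il12rb1, which was below the measured level in NK cells as a whole, had 10 and 6 UMIs in these cells, with log2 ratios of 1.31 (0.25 to 2.20) and 1.82 (0.36 to 2.96).

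Of 13 measured interferon gamma targets 11 were called higher in these cells, among them the GTPase genes Igtp (log2 2.90 and 4.06) and Irgm1 (2.45 and 3.37). Type I and type II interferons share many of these targets, so their level does not say which was received. Socs1 (1.48 and 2.85), Socs3, Myd88, Batf and Gadd45g (2.83 and 5.01) were also called higher. The chemokine gene Cxcl10, below the measured level over all NK cells, was at 233.2 CPM in interferon-response and 1.13 CPM in other NK cells of the control, and at 1686 and 1.16 CPM in the knockout. Within the interferon-response cells, Ifng went with Cxcl10, a pairing picked after these values were seen. The 29 knockout cells with a Cxcl10 UMI held 101 of the 122 Ifng UMIs (815 CPM, against 137 CPM in the 33 without), and the 12 control cells held 37 of 92 (434 against 164 CPM). Haemoglobin transcripts summed to 4423 CPM in the knockout cells of this state, of which 1226 of 1228 UMIs were in 1 cell that held no Ifng UMI.

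Cycling cells, gated on G2/M and S phase genes, went the other way for 4 members. Of 7 measured members Ifng, Il12rb2, Stat4 and Il18r1 were called lower than in other NK cells, where 7.61% of 7322 genes were called lower and 4.89% higher. Il18r1 was at 260.2 CPM in 117 cycling and 422.7 CPM in other control cells (log2 -0.70, -0.86 to -0.55), and at 151.6 CPM in 32 cycling and 461.2 CPM in other knockout cells (-1.60, -2.05 to -1.19). Stat4 gave -0.64 (-0.80 to -0.49) and -1.09 (-1.63 to -0.60), and Ifng gave -0.61 (-0.91 to -0.32) and -0.77 (-1.55 to -0.09). Il12rb2 gave -0.75 from 61 UMIs and -1.39 from 5 UMIs. With cells of at least 1000 genes Ifng fell short of the called size in the control (-0.57). After thinning Ifng, Stat4 and Il18r1 were called, and Il12rb2 was not. Cycling cells held medians of 10707 and 9384.5 UMIs, more than other NK cells, and the part of their larger mRNA total in these lower shares was not tested.

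ILC1-like cells, which share the NKp46 receptor but lack Eomes, were gated on at least 3 UMIs over at least 3 of 7 markers of group 1 innate lymphoid cells with no Eomes UMI, which gave 27 control and 73 knockout cells. Among 11 T cell markers 7 were at 0 in the control cells and 3, with Cd3e, in the knockout cells, where the T markers summed to 481.0 CPM. None of the measured members was called against NK cells, where 3.36% of 7325 genes were called higher and 5.69% lower. Ifng was at 111.8 CPM in control ILC1-like cells, close to NK cells (log2 0.00, -0.76 to 0.66), and at 209.4 CPM in knockout ILC1-like cells (1.17, 0.79 to 1.52). A single cell held 16 of the 64 knockout UMIs, and without it the ratio was 0.78. The log2 ratio of knockout over control ILC1-like cells was 0.91 (0.13 to 1.75) for Ifng, and 0.52 (-0.29 to 1.39) without that cell. The 10 interferon-response genes summed to 93.2 CPM in control and 343.6 CPM in knockout ILC1-like cells, and Cxcl10 had 0 and 94 UMIs. The 11 T cell markers summed to 118.0 and 481.0 CPM. The part of these differences in the Ifng ratio was not tested. Il18r1 was at 509.4 and 487.6 CPM, within 0.28 of NK cells on the log2 scale in both libraries. Among other genes of the list Socs2 (3.26 and 2.14), Socs1 (0.67 and 1.61) and Socs3 (1.26 and 1.051) were called higher.

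T cells, gated on Cd3e and at least 4 UMIs of CD3 and T cell receptor genes, held less of most members than NK cells. Of 7 measured members 6 were called lower, where 10.5% of 7326 genes were called lower and 2.74% higher. Il18r1 was at 174.9 and 189.9 CPM (log2 -1.26, -1.61 to -0.93, and -1.27, -1.51 to -1.046) and Il18rap at 162.9 and 118.4 CPM (-1.10, -1.47 to -0.76, and -1.63, -1.93 to -1.34). Ifng was at 40.7 and 60.4 CPM (-1.46, -2.24 to -0.78, and -0.62, -1.06 to -0.22). After thinning the knockout ratio of Ifng was -1.37. In T cells without an Ncr1 UMI Ifng was at 15.3 CPM in the control, from 4 UMIs, and at 66.9 CPM in the knockout, from 39 UMIs, which is a log2 ratio of 2.13 (0.66 to 4.07) between genotypes. Jak2 was the exception, at 93.5 CPM in control T cells against 43.2 CPM in NK cells (1.11, 0.62 to 1.57) and at 45.6 against 36.7 CPM in the knockout (0.31, -0.20 to 0.79). Of 15 measured regulators of Ifng 6 were called lower in T cells and 0 higher. They were Tbx21, Eomes, Jun, Fos, Prdm1 and the repressor gene Zeb2. The T cells were not free of NK transcripts: 40 of 57 control and 117 of 148 knockout cells held no Ncr1 UMI, the rest held at least 1, and the 7 NK markers summed to 1941 and 2314 CPM. With cells of at least 1000 genes and at most 5% mitochondrial UMIs only 2 members were called, since several knockout ratios fell short of 0.58 (Ifng -0.577, Stat4 -0.47).

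Whether cells with an Ifng UMI were also those with receptor, kinase or Stat4 UMIs was read in thinned NK cells, 1879 with and 8389 without an Ifng UMI in the control and 1398 and 7507 in the knockout. The shares were close to each other. Il18r1 was found in 53.0% of control cells with Ifng and 53.2% of those without, and in 59.7% and 57.0% in the knockout. Il18rap was found in 48.1% and 48.8%, and in 51.4% and 50.8%. Stat4 was found in 55.6% (53.3 to 57.8) and 53.2% (52.2 to 54.3) in the control and in 34.5% (32.0 to 37.0) and 36.4% (35.4 to 37.6) in the knockout, with opposite signs. Il12rb2 was slightly less frequent beside Ifng in both libraries, at 13.3% against 14.3% and 7.44% against 7.91%. Tyk2 (15.5% against 14.9%, and 14.0% against 13.0%) and Jak2 (8.36% against 8.21%, and 8.16% against 7.06%) were the 2 members of 7 with a higher share beside Ifng in both libraries, where 30.9% of 6902 genes were higher in both and 22.4% lower in both. Il12rb1, in 1.96% and 1.20% of thinned cells, is not among these genes, which needed at least 2%. Without it the share of members is still near the background. Jak2 was counted in this way under each alternative run. Tyk2 was not in cells thinned to 1000 UMIs (1.009 times in the control and 0.96 times in the knockout) or with Ifng-positive cells set at 2 UMIs (1.103 and 0.68 times).

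Il12rb1 was less frequent beside Ifng in the control at this depth. It was in 19 of 1879 cells with Ifng (1.01%, 0.61 to 1.57) against 182 of 8389 without (2.17%, 1.87 to 2.504), while the knockout gave 1.22% and 1.20%. In cells thinned to 1000 UMIs the ratio of these shares was 0.76 in the control, in place of 0.47, and 0.61 in the knockout, in place of 1.01. None of 238 knockout cells with at least 2 Ifng UMIs held Il12rb1. In cells with at least 3 Ifng UMIs, Il18r1 was found in 54 of 79 control cells (68.4%, 56.9 to 78.4), above the 53.2% of cells without Ifng, and in 30 of 52 knockout cells (57.7%, 43.2 to 71.3). Its partner Il18rap did not rise with it. Il18rap was in 33 of the 79 control cells (41.8%, 30.8 to 53.4) and 23 of the 52 knockout cells (44.2%, 30.5 to 58.7). These intervals include its shares in cells without Ifng, 48.8% and 50.8%. Stat4 was found in 51 of these 79 control cells (64.6%, 53.0 to 75.0) and in 18 of 52 knockout cells (34.6%, 22.0 to 49.1). Among all pairs of members other than Il12rb1, the share of cells with both was 0.94 to 1.09 times the product of the single shares in the control and 0.93 to 1.29 times in the knockout. The chains of the IL-18 receptor, which work as a pair, were found together in 27.0% of control cells (25.9% from the product) and 29.6% of knockout cells (29.2%). At this depth 1508 of 1879 control cells with Ifng held a single Ifng UMI, so weak ratios are a description and not a finding.

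**Figure D5:**
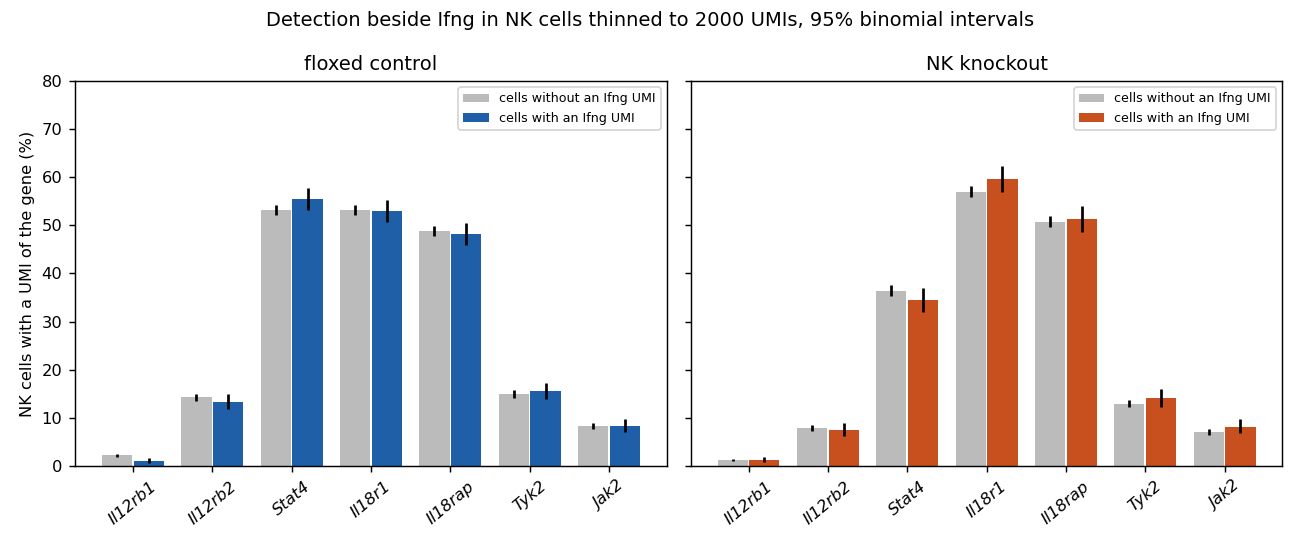
Share of thinned NK cells with a UMI of each of the other 7 members (y axis, percent) in cells without (grey) and with (coloured) an Ifng UMI, for each library, with 95% binomial intervals as bars. The paired bars are close in height for each gene, and Stat4 is lower in the knockout panel in both kinds of cell (34.5% and 36.4%, against 55.6% and 53.2% in the control).

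By the rule for likeness, the genes whose share was highest in cells with Ifng relative to cells without, taking the lower ratio of the 2 libraries over genes in at least 2% of cells, were Zbtb6 (1.41 and 1.42), the orphan receptor gene Nr4a2 (1.58 and 1.33), Vkorc1, Usp22, Socs2 (1.48 and 1.30), Dym, Timm10 and Tor1b. Each was in 2.58% to 6.87% of cells with Ifng. By the same ranking Tyk2 was 955th, Jak2 1510th and Il12rb2 4630th of 6902 genes.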

How the data were processed

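Both libraries were used, 1 per genotype label. The values deposited by the authors are UMI counts per gene and barcode, without normalization. STAR, Cell Ranger 3.0.0, Seurat and the build GRCm39 are named in the submitters' processing notes, with no roles given. Gene IDs were matched to the GENCODE annotation of GRCm38 for positions and exon lengths (30934 of 31053 matched).

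The 8 genes, the pathway and marker lists and the size limits were chosen with earlier results of these data known. Barcodes needed 500 or more genes and a mitochondrial share of 10% or less. Gates, whose limits were set on the UMI distributions, were applied in this order: myeloid droplets (at least 3 macrophage or 5 dendritic UMIs), T cells, ILC1-like cells, then NK cells (at least 3 UMIs of Ncr1, Klrb1c and Klrk1). No doublet caller was run, and droplets with myeloid markers were set apart. NK states were exclusive and set on thinned cells, which left out 120 control and 163 knockout NK cells under 2000 UMIs. Counts of a class were summed per library and divided by the class total (CPM). Genes with a mean of at least 10 CPM over both libraries counted as measured, and a called gene differed by a log2 ratio of 0.32 between genotypes, or of 0.58 in the same direction in both libraries between classes. These sizes describe and are no test. The rule for named genes took all members and, of the pathway list, up to 3 called genes per subgroup by size; Tbx21, Eomes, Cxcl10 and genes printed with no value were added after their values were seen. Steps were tested on simulated data and run with Python 3.11.15 (pandas 2.3.3, scipy 1.17.1, numpy 2.4.6, matplotlib 3.10.9). Settings tried were stricter cell filters and gates, thinning, other scaling, other minimum levels and the length adjustment. Values of some genes of the pathway list are not reported here.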

Additional observations from a re-analysis of the deposited data

Results flagged for a closer look

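The knockout over control ratio of Ifng had opposite signs between NK states and between cell types. Over all NK cells the log2 ratio was -0.27 (-0.32 to -0.21). It was 0.30 (0.01 to 0.58) in chemokine-high cells, from 508 and 134 UMIs, 1.005 (0.60 to 1.41) in interferon-response cells, from 92 and 122 UMIs, and 0.91 (0.13 to 1.75) in ILC1-like cells, from 18 and 64 UMIs. The interval of each lies above 0, while that of all NK cells lies below it. Without the knockout cell of the most Ifng UMIs, left out after the data were seen, the ratio was 0.10 (-0.205 to 0.40) in chemokine-high and 0.52 (-0.29 to 1.39) in ILC1-like cells, intervals that include 0. It was 0.79 (0.37 to 1.21) in interferon-response cells, where the interval stayed above 0. The genes of the gates were also higher in the knockout cells of both NK states. They summed to 11040 CPM (control) and 15380 CPM (knockout) in chemokine-high cells, and to 2318 and 3797 CPM in interferon-response cells. In ILC1-like cells the interferon-response genes summed to 93.2 and 343.6 CPM. The part of these differences in the Ifng ratios was not tested. The ratio of Il18r1 was 0.13 over all NK cells and -0.78 (-1.25 to -0.34) in cycling cells, from 348 and 47 UMIs. With 1 library per genotype the difference between these classes was not tested, and the intervals hold counting error only.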

How the results depend on the processing

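The count of called members was within 1.5 times its value under every setting run, except for T cells over NK cells, where 6 members were called and 2 with cells of at least 1000 genes and at most 5% mitochondrial UMIs. No direction of a called member turned in a comparison of levels. Between genotypes 2 members were called, and 3 with no minimum level, with NK cells free of other markers or with the length adjustment. Over all genes 3226 were called between genotypes, 8544 with no minimum level and 1142 at a minimum of 50 CPM, which was added after the data were seen; the number of genes tested changes by construction. In T cells without an Ncr1 UMI, also added later, 6 members were called, with Jak2 higher (1.46 and 0.67) and Ifng at -2.87 in the control, in place of -1.46, and at -0.48 in the knockout. For cycling cells, whose alternatives were added later, 4 members were called and 3 to 5 under them. Co-detection gave Il18rap and Jak2 in cells thinned to 1000 UMIs, where Tyk2 turned in the knockout (0.9637). It gave Il18r1 and Jak2 with Ifng-positive cells set at 2 UMIs, where Tyk2 turned in the knockout (0.6808) and Il12rb2 in the control (1.039), and Il18r1, Tyk2 and Jak2 outside the chemokine-high gate. The cause was not tested. No paired analysis was possible because each group is 1 library. Few cells limit the smaller classes: 41 chemokine-high and 32 cycling cells in the knockout and 27 ILC1-like cells in the control.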
